A study of Mus musculus with 24 samples.

Results

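The 42 genes described here encode enzymes that break amino acids down in the liver and enzymes of the urea cycle. They were chosen by name, with earlier results of these data known. Each was read from 1 probe, that with the highest mean signal over all arrays among the 73 probes that name these genes. They are 42 of the 21495 genes that passed the filter on low signal, and all 42 passed, each well above background on every array. Liver mRNA was measured on 24 one-colour arrays, 1 per mouse, with 6 male mice of 12 weeks in each of 4 groups. LWT mice were littermates carrying the floxed p110α (Pik3ca) alleles without Cre. LKO mice carried p110α flox/flox and 1 albumin-Cre transgene. Deletion of part of the gene was thus driven by the albumin promoter and aimed at hepatocytes, and deletion in other liver cells was not examined. LWT and LKO mice were on C57BL/6J. Fed mice ate freely, Fasted mice went 24 h without it, and every mouse was killed at ZT16 of the light cycle. LWT Fed and LWT Fasted, and LKO Fed and LKO Fasted, differ only in feeding state by the labels.

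When food is withheld, the liver takes up amino acids released from muscle, removes their amino groups and passes the carbon skeletons to glucose, ketone bodies or oxidation. Transaminases and dehydratases release the nitrogen, much of it by way of glutamate, and the urea cycle turns ammonia and the nitrogen of aspartate into urea. Insulin, which signals through p110α in hepatocytes, holds this breakdown back after a meal, whereas glucagon and glucocorticoids raise it. Many of these enzymes lie mostly in the hepatocytes around the portal vein.

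Levels are quantile normalized log2 signals, so a step of 1 is a doubling of signal, and the level of 1 probe is not set against that of another. A log2 fold change comes from 1 limma model of all arrays with the slide as a term, and SE is its standard error. A gene is named as called where p, adjusted over the 32197 probes tested, was at most 0.05 and the fold change was above 1.5. The labels do not say more of the 6 mice of a group than their number, so the p-values measure the spread between these arrays. In bulk liver, fewer cells of a type and less RNA per cell cannot be told apart.

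The share of spots well above background ran from 54.7% to 63.0% over the arrays. The summed level of 5 hepatocyte markers was 20.49 to 20.52 in LWT Fed and 20.46 to 20.54 in LWT Fasted. In LKO it was 20.48 to 20.51 when fed and 20.43 to 20.46 when fasted. No marker of that list was called in any comparison. Of 6 pancreas markers, 3 were well above background on no array and the other 3 (Cela1, Amy2a5 and Ctrb1) on every array. Their summed level was 13.84 to 14.21 in LWT Fed, 13.54 to 13.94 in LWT Fasted, 13.47 to 14.11 in LKO Fed and 12.77 to 13.19 in LKO Fasted. Cela1 was called lower with fasting in LWT (-0.60) and LKO (-1.04) and in LKO against LWT in fasted mice (-0.76). The summed level of 5 cholangiocyte markers was 11.03 to 11.74 in LWT Fed, 10.75 to 11.10 in LWT Fasted, 9.62 to 10.85 in LKO Fed and 9 to 10.19 in LKO Fasted. Each sum adds linear signals, so the probe with the strongest signal weighs most, as Spp1 did here and Cela1 among the pancreas markers. Spp1 was called lower in LKO against LWT in fed (-1.50) and fasted mice (-2.10) and with fasting in LKO (-0.95). No other cholangiocyte marker was called between genotypes. Krt19 was called lower with fasting in LWT (-0.67) and LKO (-0.59). None of 5 Kupffer cell markers was called in any comparison. In other lists, 1 marker each was called between genotypes, always lower in LKO, with Lyve1 of 5 endothelial markers in fed mice (-0.88), Cfd of 5 adipose markers in fed (-2.76) and fasted mice (-3), and Alas2 of 4 erythroid markers in fed (-0.80) and fasted mice (-0.83). Of 5 stellate cell markers, Lrat was lower with fasting in LWT (-0.90) and LKO (-0.96). The summed levels of the Kupffer, endothelial, stellate and erythroid lists overlapped between all groups. The adipose sum was 9.19 to 10.38 in LWT Fed, 8.85 to 12.45 in LWT Fasted, 8.78 to 8.95 in LKO Fed and 8.70 to 9.21 in LKO Fasted. The part of these lists in the results below was not tested. The probe for Pik3ca was higher in LKO than in LWT livers of fed mice (log2 fold change 0.58, SE 0.113, adjusted p 0.00146) and gave -0.02 (adjusted p 0.93) in fasted mice. Where this probe lies relative to the deleted part was not examined, so it is no check of the genotype labels. For these 42 genes, 1 array of LKO Fasted, replicate 4, stood apart from its group. It was the highest of the 6 for 29 members and the lowest for 4, and it had a weight of 0.355 in the model. The counts of called members, and the called changes of members that use LKO Fasted, are given below with and without it. These are by the probes used. LWT Fed replicate 3 also stood apart for some members and had the lowest weight of all arrays, 0.32. No called change of a member was lost without LWT Fed replicate 3.

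To see how amino acid breakdown in an intact liver responded to food withdrawal, LWT Fasted was compared with LWT Fed. Of the 42 members, 7 were higher and 1 was lower after fasting. Over all genes tested, 4.80% were called higher and 5.22% lower, against 16.7% and 2.38% of the members. The median log2 fold change was 0.205 over the members and -0.007 over all genes. The higher members were Got1, Aass, Sds, Tdo2, Mat1a, Sdsl and Oat, which act on aspartate, lysine, serine, tryptophan, methionine and ornithine. The lower member was Haao, in the tryptophan pathway. With no minimum fold, 17 members (beside 19.9% of all genes) were higher and 3 (beside 21.7%) lower. In LKO mice the same comparison gave 7 members higher (16.7%, beside 5.90% of all genes) and 4 lower (9.52%, beside 6.88%). The median was 0.089 over the members and -0.021 over all genes. Aass, Got1, Mat1a, Sdsl, Tdo2 and Oat were among the higher members again, with Gpt2, and the lower members were Acmsd, Haao, Hal and Prodh. With no minimum fold, 16 members (beside 19.7% of all genes) were higher and 15 (beside 21.8%) lower in LKO. Without LKO Fasted replicate 4 the counts of called members in LKO were 7 higher and 4 lower (beside 5.94% and 6.62% of all genes), those with no minimum fold 14 and 16 (beside 19.5% and 21.4%), and the median was 0.15. The LKO changes of the higher members were then 1.65 for Aass, 1.55 for Got1, 1.23 for Mat1a, 1.11 for Tdo2, 1.09 for Sdsl, 0.84 for Oat and 0.65 for Gpt2, with adjusted p up to 0.000755. Those of the lower members were -1.72 for Acmsd, -1.02 for Hal, -0.99 for Haao and -0.80 for Prodh, with adjusted p up to 6.2e-06.

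**Figure D1:**
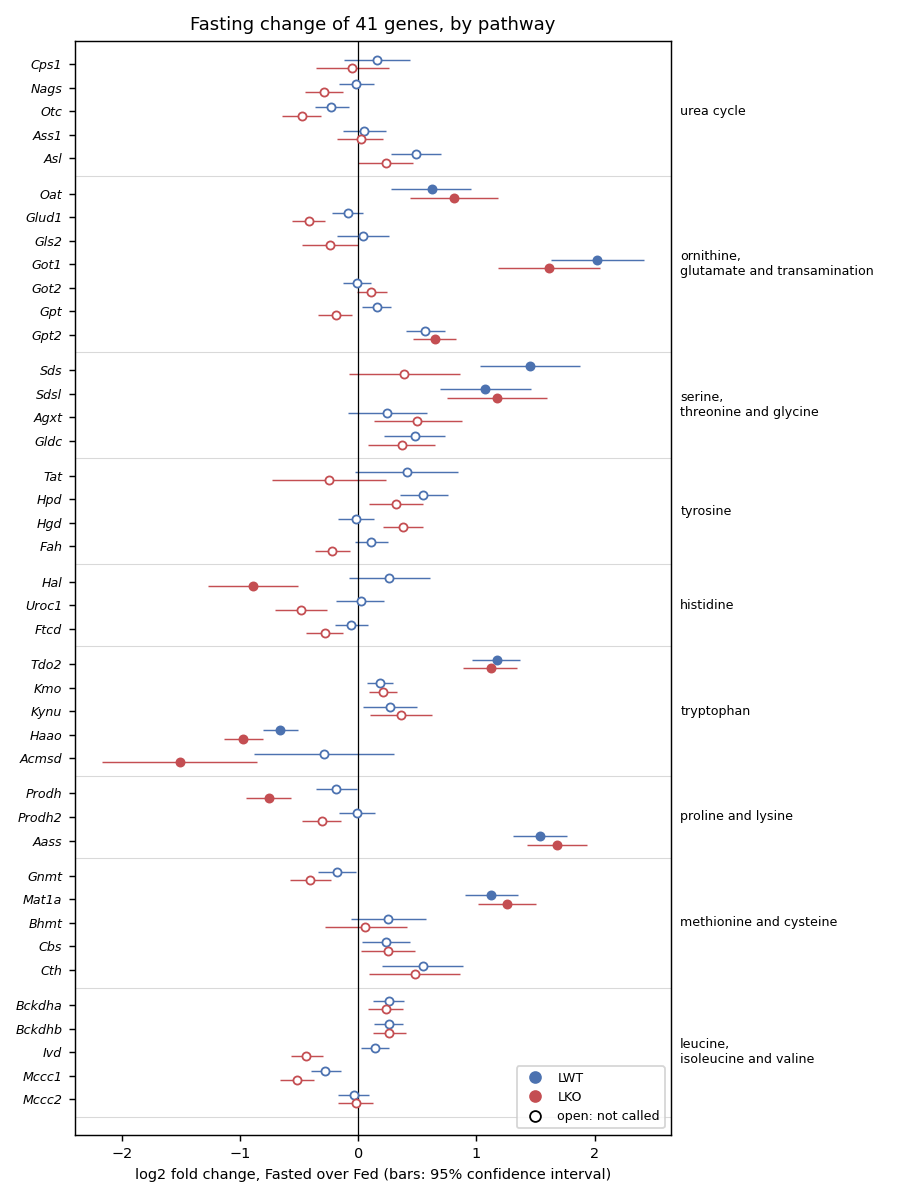
Log2 fold change of 41 of the genes from Fed to Fasted in LWT (blue) and LKO (red), with 95% confidence intervals, grouped by pathway; filled points were called and open points were not. Got1 and Aass lie farthest to the right in both genotypes, and Acmsd, Haao, Hal and Prodh lie left of 0 in LKO.

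Aspartate aminotransferase of the cytosol, encoded by Got1, moves the amino group between aspartate and glutamate. Its probe lies at chr19:43574278-43574337 of mm9. The level had a lowest, median and highest array of 13.49, 13.88 and 14.35 in LWT Fed and of 15.39, 15.99 and 16.30 in LWT Fasted. In LKO these were 14.03, 14.37 and 14.86 when fed and 15.53, 16.09 and 16.88 when fasted. Fasted arrays lay above all fed arrays of the same genotype. The log2 fold change with fasting was 2.02 in LWT (SE 0.191, adjusted p 2.76e-08), a 4.06-fold rise and the largest among the members, and 1.61 in LKO (SE 0.211, adjusted p 2.17e-06). Within the 3 slides it was 1.77 to 2.13 in LWT and 1.66 to 1.76 in LKO. Both other Got1 probes were called higher in both genotypes.

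The enzyme that opens lysine breakdown, aminoadipate-semialdehyde synthase, is encoded by Aass (probe at chr6:23022668-23022727, mm9). Its level was 14.63, 14.68 and 14.94 (lowest, median, highest) in LWT Fed and 16.05, 16.33 and 16.52 in LWT Fasted. In LKO it was 14.79, 15.02 and 15.05 when fed and 16.24, 16.82 and 17.07 when fasted. The groups did not overlap in either genotype. The fasting change was 1.54 in LWT (SE 0.111, adjusted p 5.25e-10) and 1.68 in LKO (SE 0.123, adjusted p 4.76e-10), with 1.42 to 1.83 and 1.44 to 1.99 within slides.

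Tryptophan dioxygenase, encoded by Tdo2 (probe at chr3:81765359-81765418, mm9), opens the ring of tryptophan and starts the kynurenine pathway. Its lowest, median and highest levels were 15.61, 16.08 and 16.23 in LWT Fed and 16.89, 17.22 and 17.50 in LWT Fasted. The corresponding LKO levels were 15.66, 15.86 and 16.08, and 16.71, 17.06 and 17.25. All fasted arrays exceeded all fed arrays. With fasting Tdo2 rose by 1.17 on the log2 scale in LWT (SE 0.0989, adjusted p 5.66e-09, within slides 1.16 to 1.23) and by 1.12 in LKO (SE 0.109, adjusted p 3.52e-08, within slides 0.99 to 1.28).

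RefSeq promoter sequences (GRCm38.p6) were matched by symbol for 32 of the 42 members. The 250 bases before the start of Aass and Tdo2 are shown because both genes rose in both genotypes and each window holds letters that CREB or the glucocorticoid receptor, which mediate hormone signals of fasting, are known to bind. The window of Aass, at chr6:23132987-23133236 on the minus strand, holds the CRE half-site TGACG, in capitals, once and on the printed strand. The window of Tdo2, at chr3:81975729-81975978 on the minus strand, holds ACANNNTGT, the spaced letters of a glucocorticoid response element, in capitals. Both are written 5′ to 3′ in the direction of the gene.
Aass: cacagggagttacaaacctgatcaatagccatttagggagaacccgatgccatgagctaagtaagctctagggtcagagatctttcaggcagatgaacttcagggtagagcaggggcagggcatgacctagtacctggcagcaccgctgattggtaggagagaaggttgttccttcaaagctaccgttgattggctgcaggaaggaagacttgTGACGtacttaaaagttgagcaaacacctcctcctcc
Tdo2: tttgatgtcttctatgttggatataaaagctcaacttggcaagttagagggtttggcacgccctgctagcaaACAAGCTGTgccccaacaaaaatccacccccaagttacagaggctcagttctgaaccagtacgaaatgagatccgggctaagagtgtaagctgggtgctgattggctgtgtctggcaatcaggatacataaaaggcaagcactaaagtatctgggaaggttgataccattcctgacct

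Each motif was searched on both strands of the 250 bases before the start. TGACG was present in 3 of the 32 members, Aass and Ftcd among them, and in 17.9% of 27025 promoters. The members with either motif did not all rise with fasting, and Ftcd gave -0.06 in LWT and -0.28 in LKO. Apart from Aass and Tdo2, no member matched to a promoter and called higher with fasting held either motif. ACANNNTGT was present in 4 members (Hal, Tdo2, Bhmt and Ivd) and in 5.91% of all promoters, and it reads the same on both strands. The full CRE TGACGTCA, which contains the half-site, was in 0 members and 1.62% of promoters. The FOXO motif GTAAACA was in 0 members and 3.09%, and the C/EBP motif TTGCGCAA in 0 members and 0.17%. A match is a description of the letters, and it does not show binding.

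Methionine adenosyltransferase, encoded by Mat1a (probe at chr14:41937140-41937199, mm9), makes S-adenosylmethionine from methionine. Levels were 15.16, 15.24 and 15.84 in LWT Fed, 16.19, 16.37 and 16.66 in LWT Fasted, 15.12, 15.59 and 15.72 in LKO Fed and 16.56, 16.83 and 17.03 in LKO Fasted. Fed and fasted arrays did not overlap within either genotype. The fasting change was 1.12 in LWT (SE 0.107, adjusted p 3.18e-08, within slides 0.73 to 1.24) and 1.26 in LKO (SE 0.118, adjusted p 1.95e-08, within slides 1.15 to 1.40). By the probes used, the other enzymes of methionine and cysteine in the list were not called. Cth, which releases cysteine from cystathionine, gave 0.55 (adjusted p 0.0122) in LWT and 0.48 (adjusted p 0.0445) in LKO, both below the 1.5-fold limit, and 0.37 (adjusted p 0.0655) in LKO without LKO Fasted replicate 4. Cbs, the step before it, gave 0.23 (adjusted p 0.065) and 0.25 (adjusted p 0.0749). Gnmt, which uses up S-adenosylmethionine, gave -0.18 (adjusted p 0.0621) and -0.41 (adjusted p 0.00045). Bhmt, which remethylates homocysteine, gave 0.25 (adjusted p 0.185) and 0.06 (adjusted p 0.796). A second Bhmt probe, with a mean raw log2 signal of 15.77, was called higher with fasting in LWT (0.70, adjusted p 0.0206) and gave 0.36 (adjusted p 0.281) in LKO.

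Serine dehydratase (Sds) and its relative Sdsl both turn serine and threonine into keto acids and ammonia. For Sds (probe at chr5:120933105-120933164, mm9), the lowest, median and highest levels were 12.23, 12.70 and 13.10 in LWT Fed and 13.50, 14.12 and 14.24 in LWT Fasted. In LKO they were 12.74, 13.04 and 13.71 when fed and 12.79, 13.51 and 14.96 when fasted. Fed and fasted arrays were separate in LWT and overlapped in LKO. Sds rose by 1.45 in LWT (SE 0.204, adjusted p 6.05e-06, within slides 1.31 to 1.43), whereas LKO gave 0.39 (SE 0.225, adjusted p 0.177, within slides 0.41 to 0.58). The fed level was 0.57 higher in LKO than in LWT and the fasted level 0.50 lower, neither called. The difference between these changes was -1.07 (SE 0.304, adjusted p 0.0355, within slides -0.95 to -0.79). It was -1.19 (adjusted p 0.00746) without LKO Fasted replicate 4, whose level of 14.96 was the highest. When each array was left out in turn, the difference missed the call in 12 of 24 cases, with values from -1.20 to -0.89 and adjusted p up to 0.114. These arrays were LWT Fed replicates 1, 4 and 5, LWT Fasted replicates 3, 5 and 6, LKO Fed replicates 3, 5 and 6 and LKO Fasted replicates 1, 2 and 3. The call was also lost with the processed signal (-1.05, adjusted p 0.054), with no filter on low signal (-1.01, adjusted p 0.103) and without array weights (-0.87, adjusted p 0.149). The second Sds probe, much dimmer, gave -0.69 (adjusted p 0.116) for the difference, and -0.79 (adjusted p 0.0395) without LKO Fasted replicate 4.

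Sdsl (probe at chr5:120908225-120908284, mm9) had levels of 11.93, 12.24 and 12.52 in LWT Fed, 12.80, 13.21 and 13.69 in LWT Fasted, 12.02, 12.42 and 12.72 in LKO Fed and 13.02, 13.66 and 14.67 in LKO Fasted. The fed and fasted arrays were separate in both genotypes. Its fasting change was 1.07 in LWT (SE 0.184, adjusted p 6.7e-05, within slides 0.87 to 1.26) and 1.17 in LKO (SE 0.204, adjusted p 7.6e-05, within slides 0.95 to 1.5). The difference was 0.10 with a 95% interval of -0.47 to 0.67, beside -1.70 to -0.44 for Sds. In glycine metabolism, Gldc, a subunit of the glycine cleavage system, gave 0.48 (adjusted p 0.00366) and 0.37 (adjusted p 0.0356), and Agxt, which transaminates glyoxylate to glycine, gave 0.24 (adjusted p 0.246) and 0.50 (adjusted p 0.0292). None of these passed the fold limit, and Gldc in LKO gave 0.32 (adjusted p 0.0575) without LKO Fasted replicate 4.

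**Figure D2:**
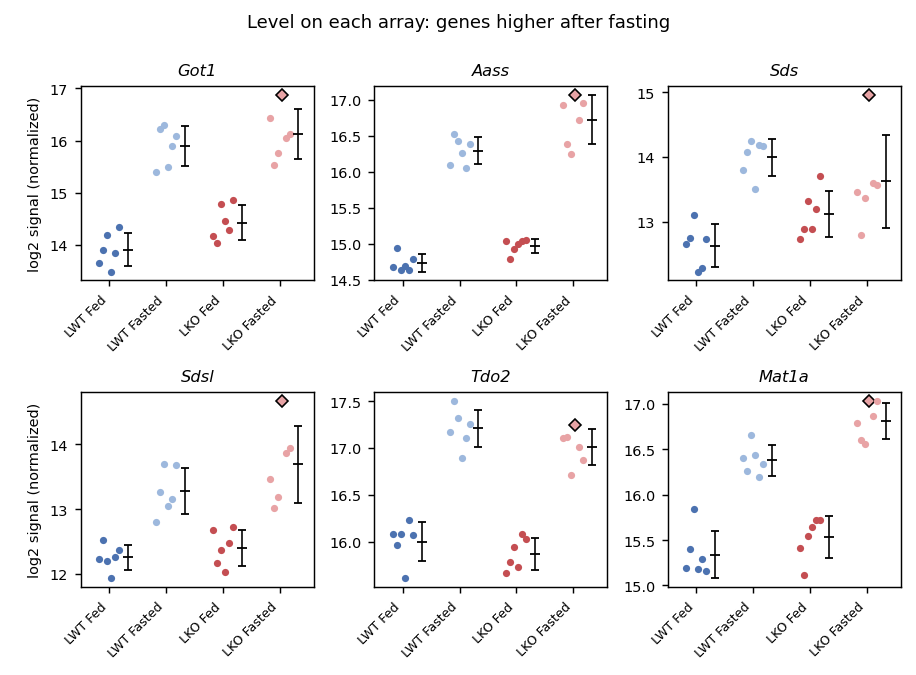
Level of 6 genes on each array (points, quantile normalized log2 signal) in the 4 groups, with mean and SD over 6 arrays beside them; the black-edged diamond is LKO Fasted replicate 4. Fasted arrays lie above fed arrays in both genotypes for Got1, Aass, Sdsl, Tdo2 and Mat1a, and the LKO groups overlap for Sds.

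Among the enzymes that handle glutamate and ornithine, Oat, ornithine aminotransferase, rose by 0.62 (adjusted p 0.00375) in LWT and 0.81 (adjusted p 0.000845) in LKO, though fed and fasted arrays overlapped. Without 1 array at a time, Oat in LWT missed the fold limit for 4 of the 24 arrays (LWT Fed replicates 2 and 6 and LWT Fasted replicates 1 and 2), with changes from 0.52 to 0.74. The call of Oat in LWT was also lost with the replicate number as a block. The mitochondrial alanine aminotransferase Gpt2 rose by 0.65 in LKO (SE 0.0869, adjusted p 3.19e-06), and gave 0.56 (SE 0.0786, adjusted p 5.7e-06) in LWT, which is 1.48-fold and just under the limit. The call in LKO was lost without LKO Fed replicate 1 (0.57). The interval of the difference for Gpt2 was -0.16 to 0.32. Its cytosolic counterpart Gpt gave 0.16 (adjusted p 0.0487) in LWT, -0.19 (adjusted p 0.0264) in LKO and a difference of -0.35 (SE 0.0924, adjusted p 0.0239). Got2, the mitochondrial partner of Got1, gave -0.01 (adjusted p 0.903) in LWT and 0.11 (adjusted p 0.146) in LKO. Glud1, glutamate dehydrogenase, gave -0.09 (adjusted p 0.278) in LWT, -0.42 (adjusted p 3.61e-05) in LKO and a difference of -0.33 (adjusted p 0.0309). The liver glutaminase Gls2 gave 0.04 (adjusted p 0.798) and -0.24 (adjusted p 0.0987), and the latter was -0.32 (adjusted p 0.00756) without LKO Fasted replicate 4.

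Of the urea cycle, 5 genes are described, and none of them was called in any comparison. In LWT, argininosuccinate lyase (Asl) gave 0.49 with fasting (SE 0.1, adjusted p 0.00044), with fed and fasted arrays apart. Otc, which joins ornithine with carbamoyl phosphate, gave -0.23 (adjusted p 0.0147). Cps1, the entry step for ammonia, gave 0.16 (adjusted p 0.367), Ass1, the step that brings in aspartate, 0.05 (adjusted p 0.665), and Nags, which makes the activator of Cps1, -0.02 (adjusted p 0.875). In LKO the changes were 0.23 for Asl (adjusted p 0.109), -0.48 for Otc (adjusted p 3.84e-05), -0.05 for Cps1 (adjusted p 0.824), 0.02 for Ass1 (adjusted p 0.909) and -0.29 for Nags (adjusted p 0.00376). The tested differences between genotypes in these changes ran from -0.27 to -0.04, none with an adjusted p under 0.05, and without LKO Fasted replicate 4 that of Nags was -0.31 (adjusted p 0.0395). A second, dimmer probe of Otc was called lower in both genotypes, with -0.71 in LWT and -1 in LKO (-1.03 without LKO Fasted replicate 4).

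Members of the kynurenine pathway differed in direction. Below Tdo2, Kmo and Kynu, which carry kynurenine onward, gave 0.18 (adjusted p 0.00927) and 0.27 (adjusted p 0.0597) in LWT and 0.21 (adjusted p 0.00654) and 0.36 (adjusted p 0.0231) in LKO. Haao (probe at chr17:84230696-84230755, mm9), the dioxygenase that makes the precursor of quinolinate and NAD, was lower after fasting. Its lowest, median and highest levels were 15.96, 15.99 and 16.27 in LWT Fed, 14.95, 15.33 and 15.60 in LWT Fasted, 15.44, 15.70 and 15.77 in LKO Fed and 14.51, 14.75 and 14.80 in LKO Fasted. Fed and fasted arrays were separate in both genotypes, and LKO arrays lay below LWT arrays in both states. Haao fell by 0.66 in LWT (SE 0.0711, adjusted p 1.76e-07, within slides -1.02 to -0.56) and by 0.98 in LKO (SE 0.0786, adjusted p 1.96e-09, within slides -1.09 to -0.84). The second probe, at a mean raw log2 signal of 6.59 against 15.43, gave -0.38 and -0.47 (adjusted p 4.88e-05 and 1.16e-05). Averaged over both probes the change in LWT was -0.52, short of the fold limit.

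Acmsd (probe at chr1:129664080-129664139, mm9) encodes the decarboxylase that draws the product of Haao away from NAD synthesis. Its levels were 9.10, 9.78 and 10.56 in LWT Fed, 8.82, 9.37 and 9.77 in LWT Fasted, 10.17, 10.64 and 11.34 in LKO Fed and 8.74, 9.04 and 11.73 in LKO Fasted. The array at 11.73 was replicate 4, and the other 5 LKO Fasted arrays lay at 8.74 to 9.26, below every LKO Fed array. In LKO, Acmsd fell by 1.51 with fasting (SE 0.314, adjusted p 0.000488, within slides -1.86 to -0.61), with -1.72 (SE 0.239, adjusted p 6.2e-06) without replicate 4. In LWT the change was -0.29 (SE 0.284, adjusted p 0.446). The difference between genotypes in the fasting change was -1.23 (SE 0.423, adjusted p 0.0807, within slides -1.26 to -0.05) with all arrays and -1.43 (SE 0.32, adjusted p 0.00799) without replicate 4.

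In histidine breakdown, 1 of the 3 members was called in the test of the fasting change between genotypes. Hal (probe at chr10:92979135-92979194, mm9), histidine ammonia-lyase, takes the first step and releases ammonia. Its lowest, median and highest levels were 13.43, 13.88 and 14.27 in LWT Fed and 13.79, 14.07 and 14.32 in LWT Fasted. The LKO levels were 13.72, 14.20 and 14.36 when fed and 12.70, 13.27 and 14.60 when fasted. Of the LKO Fasted arrays, 5 lay below all LKO Fed arrays and replicate 4, at 14.60, lay above them. The fasting change was 0.26 in LWT (SE 0.166, adjusted p 0.217) and -0.89 in LKO (SE 0.184, adjusted p 0.000486, within slides -0.96 to -0.39). The difference of -1.15 was called (SE 0.247, adjusted p 0.00685, within slides -1.39 to -0.56), and was -1.29 (SE 0.179, adjusted p 0.000159) without replicate 4. In a model without array weights, where that array counts in full, it was -0.94 (adjusted p 0.0783). The second Hal probe gave -1.46 (SE 0.256, adjusted p 0.00141) for the same difference, and -1.59 (adjusted p 5.99e-05) without replicate 4.

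Uroc1 (probe at chr6:90314337-90314396, mm9), the urocanase that follows Hal, had levels of 13.94, 14.12 and 14.42 in LWT Fed, 13.92, 14.09 and 14.37 in LWT Fasted, 13.63, 13.95 and 14.05 in LKO Fed and 13.26, 13.37 and 14.19 in LKO Fasted. Again replicate 4 was the LKO Fasted array that lay apart. With fasting Uroc1 gave 0.02 (adjusted p 0.918) in LWT and -0.49 (adjusted p 0.000832) in LKO, a difference of -0.50 (SE 0.144, adjusted p 0.0363) that is below the fold limit. Within slides this difference ran from -0.81 to 0.26. It was above 0 on slide 1 only, where the change was -0.33 in LWT and -0.07 in LKO. That slide held LKO Fasted replicate 4, and also LWT Fed replicate 3 and LWT Fasted replicate 2. Without replicate 4 the LKO change was -0.55 (adjusted p 2.34e-05) and the difference -0.57 (adjusted p 0.00381). Ftcd, which ends the pathway by passing its carbon to folate, gave -0.06 (adjusted p 0.512) and -0.28 (adjusted p 0.00393).

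The promoter of Hal is printed because this gene fell with fasting in LKO and its window holds the same motif as that of Tdo2, which rose. The window of Hal, at chr10:93488518-93488767 on the plus strand of GRCm38.p6, has ACANNNTGT in capitals.
Hal: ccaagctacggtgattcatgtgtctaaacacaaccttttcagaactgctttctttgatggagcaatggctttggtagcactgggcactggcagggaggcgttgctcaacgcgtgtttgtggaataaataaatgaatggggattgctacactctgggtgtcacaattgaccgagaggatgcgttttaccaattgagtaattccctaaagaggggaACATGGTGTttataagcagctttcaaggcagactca

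Proline dehydrogenase, encoded by Prodh (probe at chr16:18071891-18071950, mm9), starts proline breakdown in mitochondria. Its lowest, median and highest levels were 14.64, 15.01 and 15.46 in LWT Fed, 14.68, 14.70 and 14.84 in LWT Fasted, 14.42, 14.56 and 14.65 in LKO Fed and 13.65, 13.79 and 14.20 in LKO Fasted. The LKO Fasted arrays lay below those of every other group. Prodh fell by 0.76 with fasting in LKO (SE 0.0928, adjusted p 8.1e-07, within slides -0.85 to -0.61) and gave -0.19 in LWT (SE 0.0839, adjusted p 0.0807). The difference was -0.58 (SE 0.125, adjusted p 0.00735, within slides -0.78 to -0.17), 1.49-fold and just under the limit, and -0.61 (adjusted p 0.00256) without LKO Fasted replicate 4, which passes it. Its paralogue Prodh2, which acts on hydroxyproline, gave -0.01 (adjusted p 0.906) in LWT and -0.31 (adjusted p 0.00303) in LKO.

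**Figure D3:**
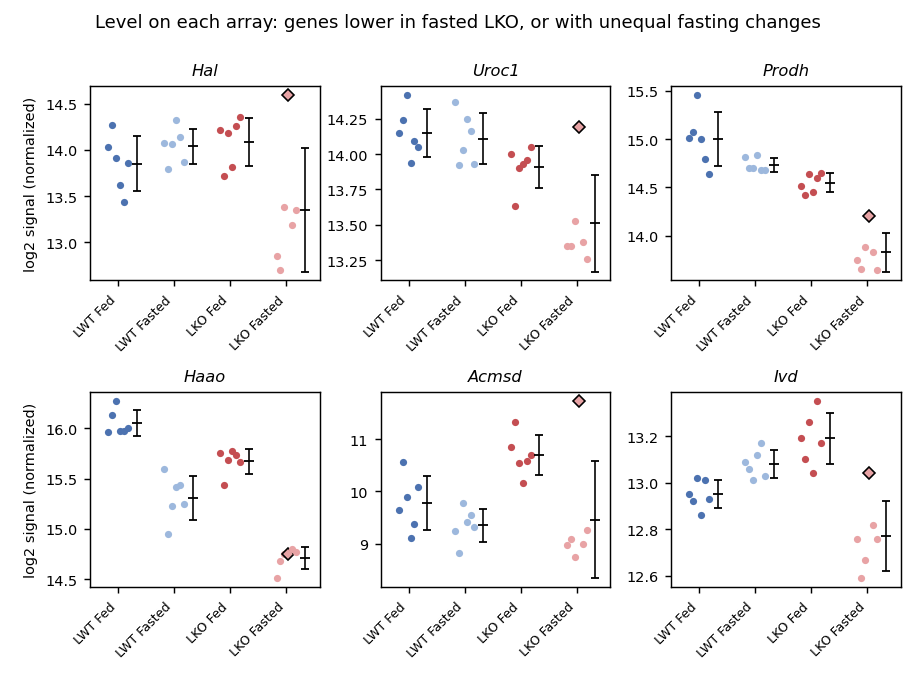
Level of 6 genes on each array (points, quantile normalized log2 signal) in the 4 groups, with mean and SD over 6 arrays; the black-edged diamond is LKO Fasted replicate 4. That array sits at 14.60 for Hal and at 11.73 for Acmsd, above the other 5 of its group, while for Haao it lies among them.

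In tyrosine breakdown no member was called. Hpd, which makes homogentisate, gave 0.55 with fasting in LWT (SE 0.0995, adjusted p 0.000109) and 0.32 in LKO (adjusted p 0.0225). Tat, the aminotransferase of the first step, gave 0.41 (adjusted p 0.126) and -0.25 (adjusted p 0.415). Hgd, which opens the ring of homogentisate, gave -0.02 (adjusted p 0.842) in LWT and 0.38 (adjusted p 0.000723) in LKO, and the difference of 0.40 (SE 0.11, adjusted p 0.0296) was the only one above 0 among the members with an adjusted p under 0.05. A second, dimmer Hgd probe gave -0.23 (adjusted p 0.627) for this difference, with 0.37 (adjusted p 0.081) in LWT and 0.14 (adjusted p 0.585) in LKO. Fah, the last enzyme, gave 0.11 (adjusted p 0.194) and -0.22 (adjusted p 0.0204), a difference of -0.33 (adjusted p 0.045, within slides -0.41 to 0.08).

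In the breakdown of leucine, isoleucine and valine no member was called either. Both subunits of the decarboxylase part of branched-chain keto acid dehydrogenase gave small positive values, with 0.26 (adjusted p 0.00267) in LWT and 0.23 (adjusted p 0.0119) in LKO for Bckdha and 0.26 in each genotype (adjusted p 0.00157 and 0.00332) for Bckdhb. Mccc1, the biotin-bearing subunit of methylcrotonyl-CoA carboxylase, gave -0.28 (adjusted p 0.000908) and -0.52 (adjusted p 2.06e-06), and its partner Mccc2 gave -0.04 (adjusted p 0.62) and -0.02 (adjusted p 0.838). Ivd, which oxidises isovaleryl-CoA from leucine, gave 0.14 (adjusted p 0.056) in LWT and -0.44 (adjusted p 1.17e-05) in LKO. Its difference of -0.58 (SE 0.0873, adjusted p 0.00042, within slides -0.64 to -0.35) was 1.49-fold, under the limit, and had the lowest adjusted p among the members. Without LKO Fasted replicate 4 it was -0.60 (adjusted p 0.000128) and passed the limit. The other Ivd probes gave -0.26 (adjusted p 0.104) and -0.42 (adjusted p 0.036) for the difference. The brighter of them differed in direction from the probe used for fasting in LKO, with 0.25 (adjusted p 0.00742), and gave 0.50 (adjusted p 1.67e-06) in LWT.

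Over all 42 members, the test of the difference between the fasting changes called 0 higher and 2 lower (Hal and Sds), or 4.76% lower, beside 1.55% of all genes higher and 1.55% lower. The median difference was -0.216 over the members and -0.001 over all genes, and 29 of the 42 values were below 0. With no minimum fold, 1 member (Hgd) was higher, beside 4.11% of all genes, and 8 were lower, beside 3.86%. Without LKO Fasted replicate 4, 5 members were called lower (Acmsd, Hal, Ivd, Prodh and Sds), beside 1.69% of all genes in the same fit. The counts with no minimum fold were then 1 higher and 10 lower, beside 4.83% and 4.30% of all genes. The fasting changes of both genotypes rest on their own fed and fasted arrays, so this comparison uses all 4 groups.

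To see what loss of hepatocyte p110α did to these genes in the fed state, LKO Fed was compared with LWT Fed. Of the members, 2 were higher (4.76%) and 0 lower, beside 2.65% of all genes higher and 1.18% lower. At an adjusted p of at most 0.05 with no minimum fold, 4 were higher and 5 lower, beside 8.80% and 7.60% of all genes. Without LKO Fasted replicate 4 these counts were 5 and 6, beside 8.86% and 7.82%. The median log2 fold change was 0.009 over the members and -0.014 over all genes. Acmsd was higher by 0.97 (SE 0.29, adjusted p 0.0261, within slides 0.61 to 1.39) and Got1 by 0.59 (SE 0.195, adjusted p 0.0421, within slides 0.42 to 0.70). The groups overlapped for both genes, as the levels above show. The call for Acmsd was lost without LWT Fed replicate 1, 4 or 5 or LKO Fed replicate 1 or 2, with values of 0.79 to 1.16 over all arrays left out in turn. The call for Got1 was lost without any 1 of 9 arrays, namely LWT Fed replicates 1, 4 and 5, LWT Fasted replicate 6, LKO Fed replicates 3, 4, 5 and 6 and LKO Fasted replicate 6, with values of 0.46 to 0.71. Neither gene was called in a model without array weights (0.92 with adjusted p 0.0909 for Acmsd, 0.52 with adjusted p 0.0925 for Got1) or with no filter on low signal (adjusted p 0.0586 and 0.0948). Got1 also missed the call with the processed signal (0.58), 75th percentile scaling (0.52), the mean of all probes (0.54) and the replicate number as a block (0.56), so in 6 of 11 alternatives. The other Got1 probes gave 0.54 (adjusted p 0.117) and 0.50 (adjusted p 0.132). In the other direction, Prodh gave -0.37 (adjusted p 0.00495) and Haao -0.33 (adjusted p 0.00381), both under the fold limit, as were Gpt2 (-0.24, adjusted p 0.0442), Got2 (-0.19, adjusted p 0.0258) and Kmo (-0.19, adjusted p 0.0206). Sds gave 0.57 (SE 0.209, adjusted p 0.0697, and 0.0364 without LKO Fasted replicate 4). Ivd gave 0.24 (adjusted p 0.00831) and Hpd 0.33 (adjusted p 0.0336). Hgd gave -0.07 (adjusted p 0.603) by the probe used and 0.55 (adjusted p 0.0338) by its second probe. Bhmt gave -0.35 (adjusted p 0.125, and 0.045 without LKO Fasted replicate 4), and its second probe was called lower (-0.74, adjusted p 0.0411).

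In the fasted state, LKO was compared with LWT in the same way. No member was called higher and 4 were called lower (9.52%), beside 1.77% of all genes higher and 2.28% lower. The median was -0.213 over the members and -0.004 over all genes, with 31 of the 42 values below 0. With no minimum fold, 4 were higher and 14 lower, beside 10% and 10.6% of all genes, and 3 and 21 without LKO Fasted replicate 4, beside 10.6% and 11.3%. Prodh was lower, at -0.95 on the log2 scale (SE 0.0911, adjusted p 4.82e-07, within slides -1.06 to -0.76), Hal at -0.87 (SE 0.18, adjusted p 0.00157, within slides -1.13 to -0.19), Uroc1 at -0.69 (SE 0.105, adjusted p 0.0001, within slides -0.90 to -0.15) and Haao at -0.64 (SE 0.0772, adjusted p 7.14e-06, within slides -0.79 to -0.39). For Prodh and Haao the LKO and LWT arrays did not overlap, and for Hal and Uroc1 replicate 4 of LKO Fasted lay among the LWT arrays or above them. Without that array the values were -0.99 for Prodh, -1 for Hal, -0.75 for Uroc1 and -0.65 for Haao, and Sds (-0.62, adjusted p 0.0256) and Tat (-0.65, adjusted p 0.0324) were called lower as well, which makes 6 members beside 2.41% of all genes in that fit. Averaged over its 2 probes Haao gave -0.38, short of the fold limit. With all arrays Sds gave -0.50 (adjusted p 0.121) and Tat -0.56 (adjusted p 0.0859).

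**Figure D4:**
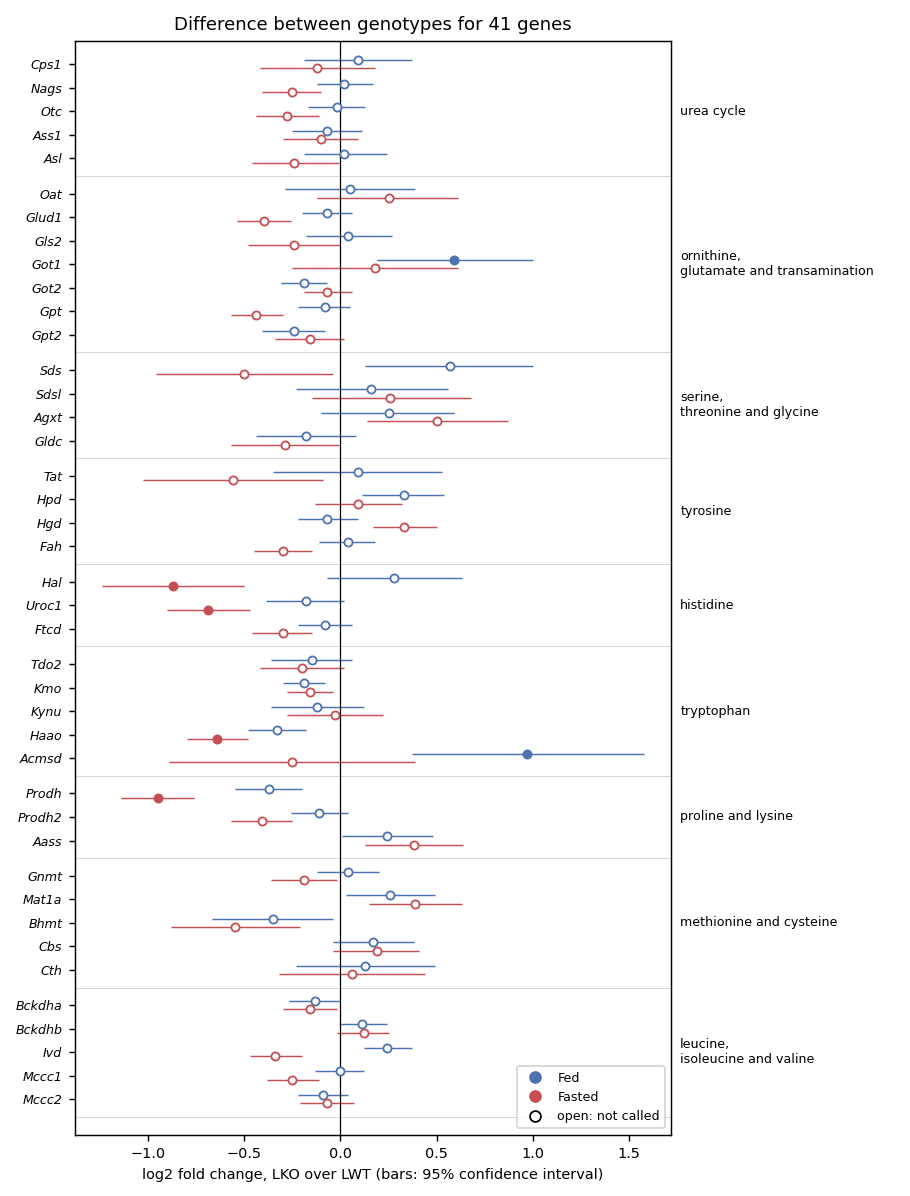
Log2 fold change of 41 of the genes in LKO over LWT, in Fed (blue) and Fasted mice (red), with 95% confidence intervals, grouped by pathway; filled points were called. In fasted mice 30 of the 41 points lie left of 0, with Prodh, Hal, Uroc1 and Haao filled, and in fed mice Acmsd and Got1 are filled to the right.

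Below the fold limit in fasted mice, Gpt gave -0.44 (adjusted p 0.000111), Prodh2 -0.41 (adjusted p 0.000783), Glud1 -0.40 (adjusted p 0.000231), Ivd -0.34 (adjusted p 0.000719), Ftcd -0.30 (adjusted p 0.00506) and Otc -0.28 (adjusted p 0.0147). On the positive side, Hgd gave 0.33 (adjusted p 0.0051), Aass 0.38 (adjusted p 0.0282), Mat1a 0.39 (adjusted p 0.02) and Agxt 0.50 (adjusted p 0.0486), which was 0.43 (adjusted p 0.0697) without LKO Fasted replicate 4. Without that array Gls2 (-0.31), Asl (-0.29), Gnmt (-0.23) and Kmo (-0.17) had adjusted p of 0.0147 to 0.045, each above 0.05 with it. Bhmt gave -0.55 (adjusted p 0.0207), and there replicate 4 was the lowest LKO Fasted array at 16.27 against 17.38 to 18.19. Without it Bhmt gave -0.44 (adjusted p 0.0166). The second Bhmt probe was called lower, at -1.08 (adjusted p 0.00477) with all arrays and -0.95 (adjusted p 0.00482) without replicate 4. The 5 urea cycle genes described above were below 0, from -0.28 to -0.10, and none was called. The fed and fasted comparisons of genotype set different arrays against each other, but both come from 1 model with 1 estimate of the spread. They are therefore not independent. The fasting change in LKO, the fasted comparison of genotype and the difference of the fasting changes all use the LKO Fasted arrays.

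The members known to lie around the portal vein were set beside 5 periportal markers outside the list. The summed level of these markers was 17.75 to 18.10 in LWT Fed, 18.12 to 18.46 in LWT Fasted, 17.57 to 18.14 in LKO Fed and 17.87 to 18.44 in LKO Fasted, and replicate 4 held the highest of the last, 18.44. The list moved both ways, with 2 markers higher and 2 lower with fasting in LWT and 2 higher and 3 lower in LKO, and Pck1, which opens gluconeogenesis from oxaloacetate, was called higher in LKO than in LWT in fed mice (0.81). None was called between the genotypes in fasted mice, and without replicate 4 Cyp2f2 was called lower there (-0.60, adjusted p 0.0171). The summed level of 7 pericentral markers was 18.72 to 18.82 in LWT Fasted and 18.47 to 18.81 in LKO Fasted, where replicate 4 was the lowest. Of the pericentral markers, 1 was called lower with fasting in LWT and 2 in LKO. Cyp1a2 among them, a cytochrome P450 of drug oxidation, was called lower in LKO against LWT in fasted mice (-0.79) and in the difference of the fasting changes (-1.07), with -0.74 and -1.01 without replicate 4. The part of either zone in the values of Hal, Sds, Acmsd and Got1 was not tested.

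A further 57 genes of amino acid breakdown, of which 56 were tested, were read from the same model. In LWT 4 were higher (7.14%, beside 4.80% of all genes) and 4 lower (7.14%, beside 5.22%) with fasting. In LKO 3 were higher (5.36%, beside 5.90%) and 3 lower (5.36%, beside 6.88%). Between genotypes 0 were called in fed mice, beside 2.65% of all genes higher and 1.18% lower. In fasted mice 0 were higher, beside 1.77%, and 2 were lower (3.57%, beside 2.28%). The difference of the fasting changes was called lower for 3 (5.36%, beside 1.55%) and higher for 0 (beside 1.55%). Without LKO Fasted replicate 4, 3 were higher (beside 5.94% of all genes) and 4 lower (beside 6.62%) with fasting in LKO. In that fit 4 were lower between genotypes in fasted mice (beside 2.41%) and 3 lower for the difference (beside 1.69%). Cdo1, which oxidises cysteine, rose by 0.71 in LWT (adjusted p 2.08e-06) and gave 0.07 in LKO (adjusted p 0.608), a difference of -0.63 (SE 0.136, adjusted p 0.00673). Pipox, an oxidase of lysine-derived pipecolate, gave 0.00 in LWT (adjusted p 0.987) and fell by 0.69 in LKO (adjusted p 2.06e-07), a difference of -0.70 (adjusted p 0.00035). Afmid, the formamidase between Tdo2 and Kmo, gave 0.31 and -0.47, a difference of -0.78 (SE 0.138, adjusted p 0.00161). Kyat1, a kynurenine aminotransferase, fell by 0.71 in LWT (adjusted p 3.82e-06) and by 1.14 in LKO (adjusted p 1.55e-08). Gcat, in threonine breakdown, fell by 0.64 (adjusted p 2.36e-08) in LWT and fell by 0.73 in LKO (adjusted p 1.18e-08), and Acat1, a thiolase of isoleucine and ketone metabolism, rose by 0.63 (adjusted p 1.78e-05) and 0.71 (adjusted p 1.36e-05). Without LKO Fasted replicate 4 the differences were -0.66 for Cdo1, -0.71 for Pipox and -0.80 for Afmid, and the LKO changes were -0.70 for Pipox, -1.21 for Kyat1, -0.73 for Gcat and 0.78 for Acat1, each called.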

How the data were processed

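Total liver RNA was labelled with Cy3 and hybridised by the authors to one-colour Agilent mouse arrays, which were read with Agilent Feature Extraction 10.10.1.1. The deposited scanner files give, per spot, the median signal intensity before background subtraction, the mean and background intensity and a processed intensity, none scaled between arrays. The deposited table of log2 values was made by the authors after filtering and quantile normalization and served as an alternative. Positions refer to mm9. Control spots and spots marked as outliers were left out, and spots of 1 probe were averaged. Probes well above background on at least 5 of 6 arrays of 1 group were kept (32197 of 56605). The log2 median intensity was quantile normalized. The model (limma 3.58.1, R 4.3.3) had group means, slide and array weights, with slide (3 slides, 2 arrays of every group on each) in place of the washing bath of the methods, which the labels do not name. Two-sided p-values were adjusted by Benjamini-Hochberg over all probes kept, and the script was tested on simulated data. Counts over all genes take, for each gene, the probe that was brightest on average. Within-slide values are plain differences of group means, without weights. Genes described in full were, per comparison, up to 4 called members with the largest changes in each direction. The members, the 57 further genes and the marker lists were chosen with earlier results of these data known. Alternatives covered background correction, scaling, filter, model terms, probe choice, fold limit and left-out arrays. Motifs were searched in the 250 bases before the first listed start of a gene. The values of 1 member and 1 promoter sequence are not reported here.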

Additional observations from a re-analysis of the deposited data

Results flagged for a closer look

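Of the 168 sets of 6 arrays that the 42 genes and 4 groups give, 17 had 1 array whose gap to the nearest of the other 5, over the range of the set, was above Dixon's critical value, where chance gives about 1 in 20. LKO Fasted replicate 4 accounted for 5 of them, in each case as the highest array: Acmsd at 11.73 (next 9.26), Gls2 at 15.78 (next 14.88), Hal at 14.60 (next 13.38), Sds at 14.96 (next 13.60) and Uroc1 at 14.19 (next 13.53). LWT Fed replicate 3 accounted for another 5, with Got2 at 15.52, Gpt2 at 14.54, Mat1a at 15.84 and Prodh2 at 14.94 as the highest and Otc at 14.07 as the lowest. This array and LKO Fasted replicate 4 had the lowest weights in the model, 0.32 and 0.355, and both lay on slide 1. LWT Fasted replicate 2 was lowest for Fah at 14.44 and Nags at 11.45, and LWT Fasted replicate 3 was highest for Asl at 15.77. LKO Fed replicate 2 was lowest for Haao at 15.44 and Uroc1 at 13.63, LKO Fed replicate 4 was lowest for Cps1 at 15.36, and LKO Fed replicate 6 was highest for Cth at 15.00. Why these arrays differ was not tested.

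The fasting change differed between genotypes, at an adjusted p of at most 0.05 in limma, for 9 members. The change in LKO minus that in LWT was -1.15 for Hal, -1.07 for Sds, -0.58 for Ivd, -0.58 for Prodh, -0.50 for Uroc1, -0.35 for Gpt, -0.33 for Glud1 and -0.33 for Fah. It was 0.40 for Hgd. The fold limit was passed by Hal and Sds.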

How the results depend on the processing

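No called member changed direction in any alternative. Of 295 values of the 27 calls under 11 alternatives of signal, scaling, filter, model and probe choice, 280 stayed called, as did 617 of 648 with 1 array left out. No scaling moved the median of all probes by over 0.1. Members called, LKO against LWT in fed mice (2 in the report), numbered 1 with the processed signal, 75th percentile scaling, the replicate block or the mean of all probes, and 0 with no filter or no array weights. For the difference between fasting changes (2), no filter left 1, no array weights 0, the processed signal gave 2 without Sds (-1.05, adjusted p 0.054), and 1 remained without LKO Fasted replicates 1 and 2 together. With no minimum fold the counts were 20 and 31 with fasting in LWT and LKO, 9 and 18 between genotypes fed and fasted, and 9 for the difference. With a fold above 2 they were 6 with fasting in LWT (6 higher, beside 1.82% of all genes higher), 6 in LKO (5 higher and 1 lower, beside 2.27% and 2.38%), 0 between genotypes in either state (0.465% to 1.0% of all genes in 1 direction) and 2 lower for the difference (beside 0.451%). Leaving out 1 array gave 7 to 10 and 10 to 12 with fasting in LWT and LKO, 0 to 2 and 4 to 6 between genotypes fed and fasted, and 1 to 5 for the difference, the 5 without LKO Fasted replicate 4. The labels give all groups the same replicate numbers, but in 36 same-numbered pairs the deviations correlated by -0.18 to 0.275, over 0.1 in 4, so the numbers were not read as pairs. With the replicate block, 7, 11, 1, 4 and 2 members were called in the order above. The fed call of Acmsd rests on a dim probe. The number of arrays limits the precision.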
